A study of Caenorhabditis elegans with 20 samples.

Results

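Transcript levels of 8 transcription factor genes of the nematode Caenorhabditis elegans were followed in young and old worms that did or did not overexpress elt-2, the gene of a GATA factor that drives transcription in the intestine. The genes were daf-16, pqm-1, skn-1, hsf-1, hlh-30, pha-4, unc-62 and nhr-49. They were chosen by name, as regulators with established roles in lifespan, with earlier results of these data known. Each is a row of a table of 21383 genes. Whole worms were profiled by 3SEQ. Its reads come from the 3′ ends of messenger RNA, so that a count does not scale with transcript length and levels can be set side by side between genes.

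There were 20 libraries, 5 in each of 4 groups, with letters A to E in every group. Both strains carried the rde-1(ne300) and unc-119(ed3) mutations and an extrachromosomal array with unc-119(+), and were thus not wild type. In the control strain (SD1965) the array held unc-119(+) alone, and in the overexpressing strain (SD1963) it also held elt-2 fused to GFP under the elt-2 upstream region, so that each genotype was represented by 1 line. Worms were collected as L4 larvae or at Day 13 of adulthood. The Day 13 worms had been kept on FUDR, which stops progeny from developing, so age, the step from larva to adult and FUDR cannot be told apart in the age comparison.

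These factors are the end points of several pathways that set lifespan in the worm. When insulin signalling through the receptor DAF-2 is low, the forkhead factor DAF-16 enters the nucleus and induces stress genes, the class I targets, while the zinc finger protein PQM-1 leaves the nucleus, where it is linked to the class II genes of growth and metabolism. SKN-1 directs detoxification, HSF-1 chaperone synthesis, HLH-30 autophagy and lipid breakdown, and NHR-49 fatty acid desaturation and oxidation. PHA-4 is the FoxA factor that specifies the pharynx and is needed for the long life of diet-restricted worms, and UNC-62 is a TALE homeodomain partner of Hox proteins that acts on yolk genes in the adult intestine. Several of them are controlled mainly through their location or stability as proteins, which transcript counts do not show.

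In the WBcel235 annotation, daf-16 (R13H8.1) lies at I:10750498-10776703 on the plus strand, hsf-1 (Y53C10A.12) at I:11953507-11963085 on the minus strand and nhr-49 (K10C3.6) at I:9869651-9874680 on the plus strand. The gene pqm-1 (F40F8.7) lies at II:11150391-11152595 on the minus strand. On chromosome IV, hlh-30 (W02C12.3) lies at 4014793 to 4034951 and skn-1 (T19E7.2) at 5651039 to 5660384, both on the minus strand. On chromosome V, pha-4 (F38A6.1) lies at 20753052 to 20760317 and unc-62 (T28F12.2) at 4497461 to 4511449, both on the plus strand. Only skn-1 had a protein-coding gene over its 3′ end, csn-5 on the opposite strand, while daf-16, hlh-30 and pha-4 overlapped noncoding genes on the opposite strand. Whether the counting used strand is not given in the sources used here, so reads of skn-1 and csn-5 may not be separable.

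Libraries held 10749795 to 42317549 counts, of which the 3% most highly counted genes took 90.8 to 96.7%. Letters D and E stood apart from A to C in 3 of the 4 groups and by little in overexpressing Day 13 worms. Over 10545 genes, control L4 libraries correlated at 0.784 to 0.829 between these sets, against at least 0.963 within them (Pearson r of log2 levels), and overexpressing Day 13 libraries at 0.858 to 0.939 against at least 0.94. At L4 the libraries D and E also held fewer transcripts of sperm markers, with summed levels of 19.9 to 199 CPM against 682 to 1370 CPM in A to C of both strains. The labels give no batch, so the sets are described by their letters, and values without D and E are given where they change a result. elt-2 itself was at 0.674 to 3.49 CPM in control and 3.16 to 10.2 CPM in overexpressing libraries at L4, where the groups overlapped, and at 0.959 to 1.34 CPM against 5.37 to 7.41 CPM at Day 13, where they did not. Its log2 difference was 1.83 ± 0.54 at L4 (SE, adjusted p = 0.34 in edgeR) and 2.47 ± 0.30 at Day 13 (adjusted p = 0.0176). The fusion ends in the unc-54 untranslated region, and which of its reads were counted to elt-2 is not given in the sources used here.

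All 8 genes were at or below 10.6 CPM in every library, where the 3% most highly counted genes took 90.8 to 96.7% of the counts. Their levels were not ranked against those of other genes. CPM are counts per 1000000 counts of the library after TMM scaling over all 20 libraries, whereas each fit of age or strain was scaled over its 10 libraries. In these units 3 counts corresponded to 0.0971 to 0.178 CPM depending on the library. In control L4 worms hlh-30 was highest at 6.14 ± 1.60 CPM (SD, n = 5), followed by skn-1 at 3.43 ± 0.427 and daf-16 at 2.61 ± 0.396. nhr-49 followed at 1.78 ± 0.683, pqm-1 at 1.61 ± 1.61, hsf-1 at 1.31 ± 0.411, unc-62 at 0.961 ± 0.241 and pha-4 at 0.583 ± 0.448. Neighbours from nhr-49 downward were within 1 SD of each other. In control Day 13 worms skn-1 (6.77 ± 1.72) and hlh-30 (6.21 ± 2.99) were within their SD of each other at the top, and nhr-49, daf-16 and hsf-1 followed at 3.73 ± 0.481, 3.58 ± 1.1 and 3.07 ± 1.17. pha-4 was the lowest in every group and reached 4 to 27 counts in a library.

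**Figure D1:**
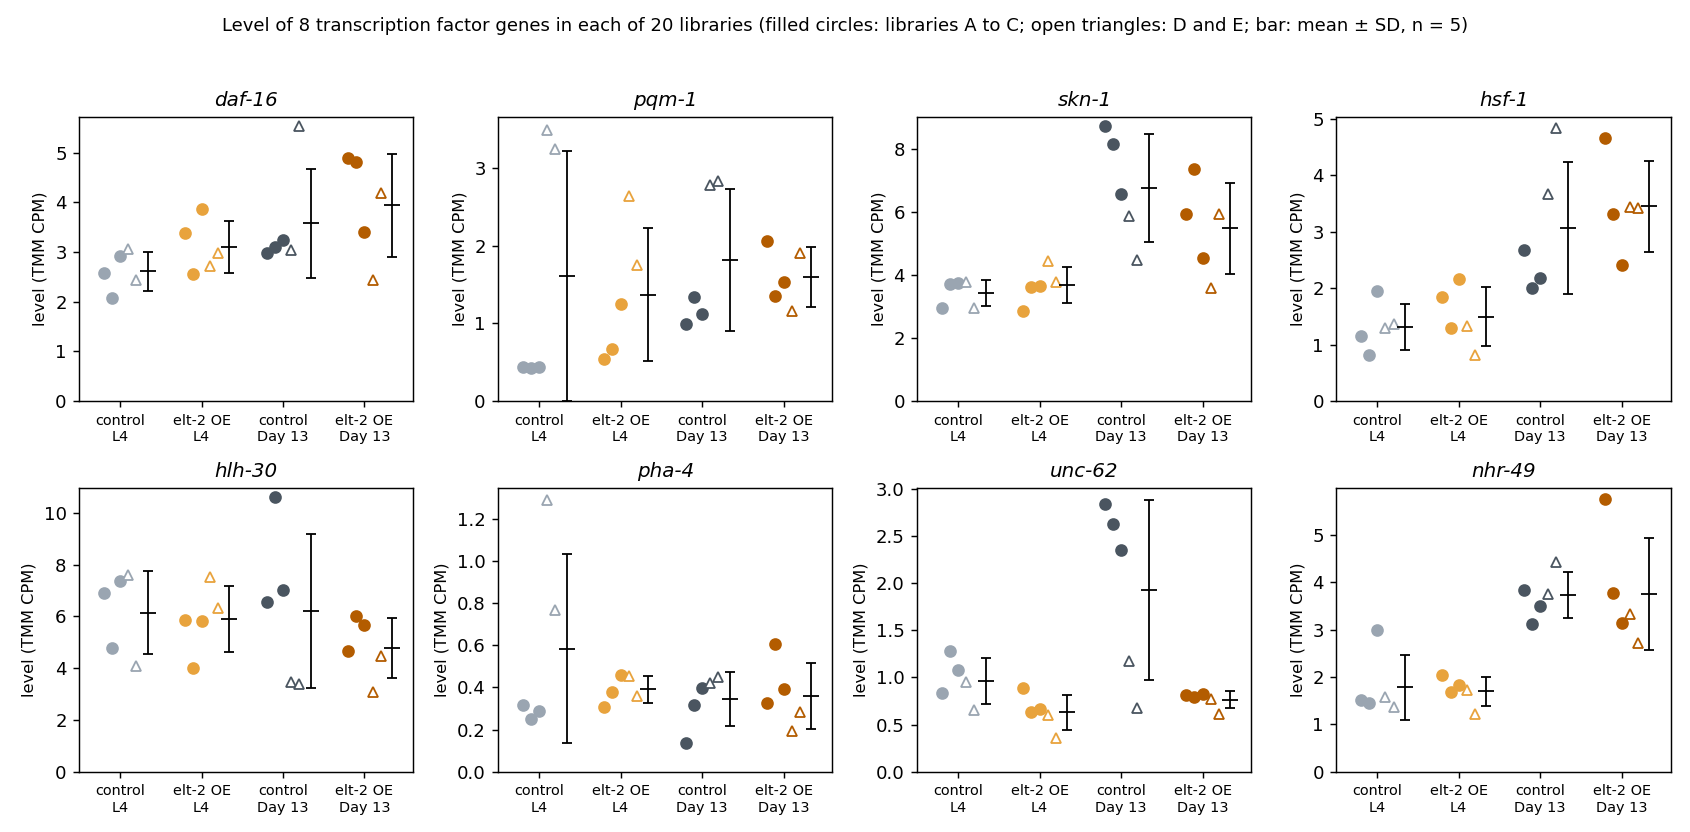
Level of each gene in every library as CPM after TMM scaling over all 20 libraries (y axis, linear, from 0) by group (x axis). Filled circles are letters A to C, open triangles letters D and E, and bars the mean ± SD of 5 libraries. On this scale hsf-1 and nhr-49 were higher at Day 13 than at L4 with no overlap in either strain. unc-62 was at 2.35 to 2.84 CPM in control Day 13 letters A to C and at or below 1.28 CPM elsewhere.

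The first question was how the factors changed from L4 to Day 13. hsf-1 and nhr-49 rose with age in control and in overexpressing worms. None of the other 6 passed the test in either strain, and pha-4 was not tested in overexpressing worms. In control worms 2 of 8 genes were called at an adjusted p below 0.10 (edgeR quasi-likelihood test, Benjamini-Hochberg over 9063 genes), both higher, where 21.9% of all genes tested were called higher and 23.7% lower (45.6% in all). In overexpressing worms 2 of the 7 genes that passed the count filter were called, again both higher, where 25.8% of 8863 genes were called higher and 23.4% lower (49.2% in all). The share called higher among the 8 genes is thus near that of all genes in both strains. None of the 8 was called lower. Levels did not overlap between L4 and Day 13 for 3 of 8 genes in control worms and for 2 of 7 in overexpressing worms, where 27.8% and 31.6% of all genes tested did not overlap in either direction. The margins in control worms were small for hsf-1 (1.95 against 2.01 CPM) and nhr-49 (2.99 against 3.11 CPM). Overlap was taken on the scale of all 20 libraries and was not tested on that of the fits. The median log2 change was 0.48 over the 8 genes and 0.12 over all genes in control worms, and 0.29 and 0.22 in overexpressing worms.

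hsf-1 encodes the heat shock factor that induces chaperones. In control L4 libraries A to E it was at 1.15, 0.82, 1.95, 1.29 and 1.36 CPM, and at Day 13 at 2.67, 2.01, 2.18, 3.66 and 4.83 CPM. In overexpressing worms it was at 1.85, 1.30, 2.16, 1.32 and 0.813 CPM at L4 and at 4.66, 3.31, 2.40, 3.44 and 3.42 CPM at Day 13. On the scale of all 20 libraries every Day 13 library was above every L4 library of its strain, and the margin was narrow in letter C of both strains. The log2 change was 0.99 ± 0.37 (SE, adjusted p = 0.0527) in control worms and 1.16 ± 0.32 (adjusted p = 0.0142) in overexpressing worms. In letters D and E alone the log2 change was 1.66 in control and 1.70 in overexpressing worms, and in A to C alone it was 0.47 (adjusted p = 0.28) and 0.73 (adjusted p = 0.0956). The difference between the letter sets was not tested. The call in control worms was lost without control L4 letter D (log2 change 0.92, adjusted p = 0.108).

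nhr-49 encodes a nuclear hormone receptor of lipid metabolism. It was at 1.51, 1.46, 2.99, 1.58 and 1.36 CPM in control L4 libraries A to E and at 3.84, 3.11, 3.50, 3.76 and 4.42 CPM in control Day 13 libraries. In overexpressing worms it was at 2.05, 1.68, 1.83, 1.73 and 1.22 CPM at L4 and at 5.76, 3.78, 3.14, 3.32 and 2.72 CPM at Day 13. On the scale of all 20 libraries the groups did not overlap in either strain, although control L4 letter C came close to the lowest Day 13 library. The log2 change was 0.82 ± 0.34 (SE, adjusted p = 0.0816) in control worms and 1.08 ± 0.30 (adjusted p = 0.0132) in overexpressing worms. The call in control worms was lost when any 1 of 5 libraries was left out, L4 letter D (log2 change 0.71, adjusted p = 0.165), L4 letter E (0.72, 0.157), or Day 13 letters A (0.86, 0.112), D (0.80, 0.121) or E (0.79, 0.108). It was lost with letters A to C alone as well, with a log2 change of 0.47, against 1.46 in D and E. In overexpressing worms the calls of both genes held without any single library.

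skn-1 encodes the Nrf-like factor of the oxidative stress response. In control worms it was at 2.97, 3.71, 3.75, 3.78 and 2.96 CPM at L4 and at 8.73, 8.16, 6.58, 5.89 and 4.47 CPM at Day 13. On this scale of all 20 libraries skn-1 did not overlap between the ages and was higher at Day 13 in 5 of 5 letters. Its log2 change of 0.74 ± 0.35 did not pass the test (adjusted p = 0.117), but did with the letter as a block (0.72 ± 0.25, adjusted p = 0.0447), under which 58.3% of all genes were called. It was called in control worms also by DESeq2 (0.70, adjusted p = 0.0359), where 4879 of 9063 genes were called. Without the count filter it was called (1.01, adjusted p = 0.0883) beside 6341 of 18065 genes. In letters A to C alone it was called as well (0.81, adjusted p = 0.0412, where 55.4% of all genes were called). The call was gained as well without L4 letter A, B or C (adjusted p = 0.0922, 0.0793 and 0.0726) or Day 13 letter E (adjusted p = 0.064). In the same order, 4513 of 9754, 3947 of 9685, 4269 of 9723 and 4114 of 9376 genes were called. In letters D and E alone skn-1 was not called (0.60, adjusted p = 0.313). In overexpressing worms it was at 2.87, 3.61, 3.65, 4.45 and 3.79 CPM at L4 and at 5.95, 7.37, 4.54, 3.59 and 5.94 CPM at Day 13. There the groups overlapped through letter D, and the log2 change was 0.51 ± 0.31 (adjusted p = 0.199). csn-5, whose reads may be counted with those of skn-1, was at 128 ± 58.6 CPM in control L4 and 140 ± 74.8 CPM in control Day 13 worms, higher at Day 13 in 3 of 5 letters, and its part in the skn-1 values was not tested.

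daf-16 encodes the forkhead factor downstream of insulin signalling. It ranged from 2.07 to 3.06 CPM in control L4 and from 2.98 to 5.55 CPM in control Day 13 worms, with a log2 change of 0.23 ± 0.32 (adjusted p = 0.601), which was 0.07 without control Day 13 letter E and 0.48 without control L4 letter C. In overexpressing worms it ranged from 2.56 to 3.86 CPM at L4 and from 2.43 to 4.89 CPM at Day 13, with a log2 change of 0.29 ± 0.29 (adjusted p = 0.449). The groups overlapped in both strains. hlh-30 encodes the TFEB-like factor of autophagy and ranged from 4.08 to 7.60 CPM at L4 and from 3.38 to 10.6 CPM at Day 13 in control worms. Its log2 change was -0.20 ± 0.43 (adjusted p = 0.733) in control and -0.37 ± 0.32 (adjusted p = 0.377) in overexpressing worms, and without the top 3% of genes in the totals these values became 0.21 and 0.00. The sign of the control value differs from that of the group means (6.14 CPM at L4 and 6.21 CPM at Day 13), which were scaled over all 20 libraries rather than the 10 fitted, so no direction is given for hlh-30. A change of either gene was not detectable beyond the spread of the libraries.

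pqm-1 encodes the zinc finger factor that opposes DAF-16 in its location. In control L4 worms it was at 0.436, 0.428 and 0.433 CPM in letters A to C but at 3.49 and 3.25 CPM in D and E, a ratio of 7.80 between the means of the sets. In control Day 13 worms it was at 0.993, 1.34, 1.12, 2.78 and 2.84 CPM, again with D and E above the others. In overexpressing worms it was at 0.547, 0.671, 1.25, 2.64 and 1.76 CPM at L4 and at 2.07, 1.35, 1.53, 1.16 and 1.91 CPM at Day 13. In control worms the letter sets thus differed more at L4 than the ages did in their means, and in overexpressing Day 13 worms D and E were not above A to C. Over all letters the age change was 0.07 ± 0.65 in control and 0.14 ± 0.44 in overexpressing worms (adjusted p = 0.942 and 0.812). In letters A to C alone it was 1.06 ± 0.36 in control worms (adjusted p = 0.0324), where 55.4% of all genes were called, and in D and E it was -0.28.

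pha-4 went with pqm-1 in the same libraries, at 0.317, 0.250 and 0.289 CPM in control L4 letters A to C and at 1.29 and 0.769 CPM in D and E. In the other groups it was between 0.137 and 0.607 CPM. Its age change in control worms was -0.88 ± 0.50 (adjusted p = 0.183), and -0.46 without control L4 letter D (adjusted p = 0.493). It had too few counts to pass the filter in overexpressing worms and in the strain comparison at L4. The low summed level of sperm markers in D and E at L4 moved with these values, and so did that of hypodermis markers (45.6 to 247 CPM in D and E against 4060 to 13200 CPM in A to C, 5 markers, both strains). Markers of the pharynx and the intestine were higher in these libraries. In control L4 worms the summed level of 4 pharynx markers was 88.8 and 93.5 CPM in D and E against 21.2 to 31.2 CPM in A to C, and that of 8 intestine markers was 4300 and 5160 CPM against 1940 to 2440 CPM. In overexpressing L4 worms the pharynx sum was 51.5 and 67.3 CPM against 15.6 to 25.3 CPM and the intestine sum 3060 and 5270 CPM against 1050 to 1250 CPM, while pha-4 was at 0.453 and 0.361 CPM against 0.308 to 0.457 CPM. Other marker sums also split by letter set at L4. In control worms germline was at 367 and 284 CPM in D and E against 722 to 916 CPM. Oocytes and early embryos were at 6.84 and 4.97 CPM against 12 to 57.5 CPM, and neurons at 86.2 and 86.7 CPM against 64.9 to 68.2 CPM. In overexpressing worms these sums split in the same directions. Body muscle was lower in D and E in control worms and higher in overexpressing worms. The part of all these markers in the pqm-1 and pha-4 levels was not tested.

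**Figure D2:**
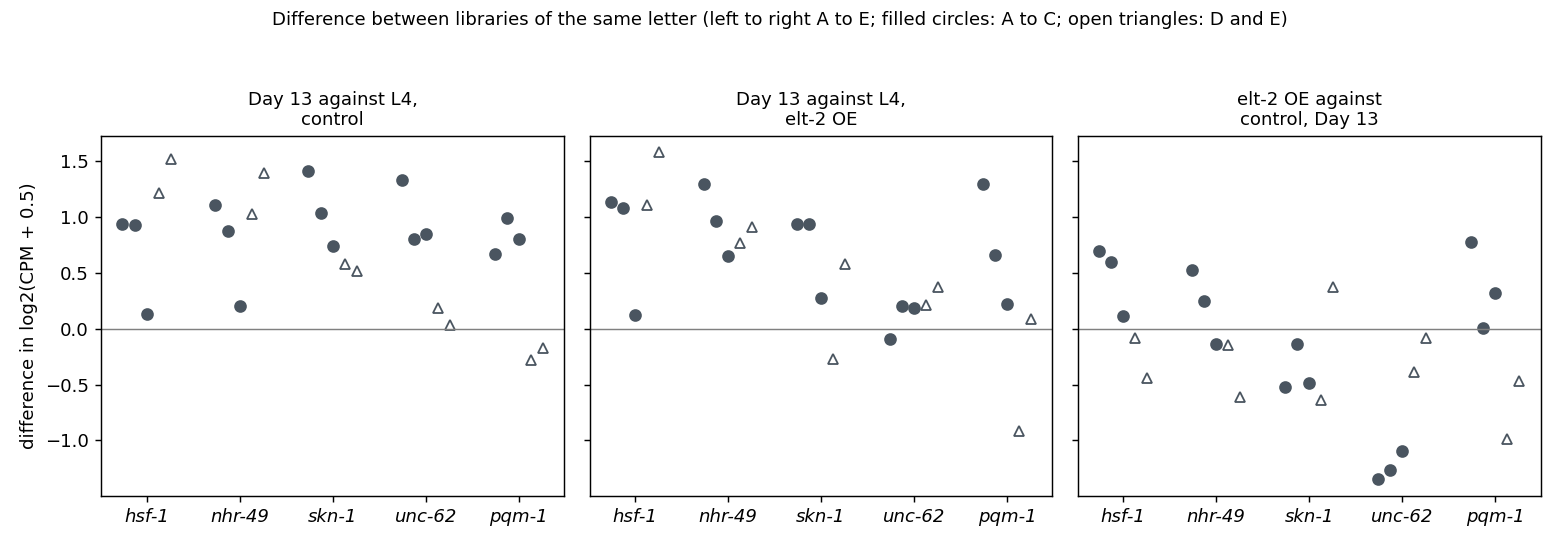
Difference in log2(CPM + 0.5) between libraries of the same letter (y axis) for 5 genes (x axis), for Day 13 against L4 in control and in overexpressing worms and for overexpressing against control worms at Day 13. Filled circles are letters A to C and open triangles D and E. Levels were scaled over all 20 libraries, unlike the fits. hsf-1 and nhr-49 lay above 0 in 5 of 5 letters in both age comparisons, whereas pqm-1 in control worms lay above 0 in A to C and below 0 in D and E.

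The age calls depended on the scale. Totals that left out the 3% most highly counted genes moved the median log2 change of all genes from 0.12 to 0.61 in control and from 0.22 to 0.56 in overexpressing worms. On that scale 4 of 8 genes were called in control worms (hsf-1, nhr-49, skn-1 and unc-62, where 53.7% of all genes were called) and 3 in overexpressing worms (hsf-1, nhr-49 and skn-1, where 52.8% were called). Relative to the median of all genes the values moved little. hsf-1 lay 0.87 above it on the first scale and 0.95 on the second in control worms, and 0.94 and 0.88 in overexpressing worms. nhr-49 lay 0.69 and 0.75 above it in control worms, and 0.86 on both scales in overexpressing worms.

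Transcripts of tissue markers also moved with age. Between L4 and Day 13, 7 of 8 intestine markers, 4 of 4 pharynx markers and 5 of 5 body muscle markers fell in both strains, and 5 of 6 markers of oocytes and early embryos rose. Sperm markers fell in 4 of 4 tested in control and 5 of 5 in overexpressing worms. Neuron markers went both ways (2 higher and 4 lower of 6 in control, 3 and 3 of 7 in overexpressing worms), as did hypodermis markers. Of 6 germline markers 1 fell in control worms and none was called in overexpressing worms. The summed intestine level ranged from 1940 to 5160 CPM in control L4 and from 140 to 635 CPM in control Day 13 worms, and the summed oocyte and embryo level from 4.97 to 57.5 CPM and from 55.7 to 218 CPM. No listed marker was at 0 in a group. In whole worms fewer cells of a type and less RNA per cell cannot be told apart, and the part of these shifts in the hsf-1 and nhr-49 values was not tested.

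The second question was whether elt-2 overexpression changed the factors. None of the 7 genes tested at L4 and none of the 8 tested at Day 13 was called, where 0.0345% (3 of 8696) and 0.0117% (1 of 8544, elt-2 itself) of all genes were called by edgeR. At an unadjusted p below 0.05, 911 and 1125 genes passed, among which the 8 genes contributed 0 and 1. Levels overlapped between the strains for all of them at both ages, where 2.52% and 0.995% of all genes tested did not overlap. DESeq2 called 461 and 741 genes, the latter 8.67% of those tested, among which the 8 genes contributed 0 and 1. With the letter as a block 211 genes were called at L4 (2.43%), none of them among the 8. Letters A to C alone called 2957 of 9007 genes at L4 and 4094 of 8716 at Day 13, to which the 8 genes contributed 0 and 1. Over all letters edgeR did not call elt-2 itself at L4 (1.83 ± 0.54, adjusted p = 0.34). A missing call between strains thus does not show that a difference is absent.

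unc-62 was the gene that passed at Day 13 in DESeq2. It was at 2.84, 2.62, 2.35, 1.17 and 0.677 CPM in control Day 13 libraries A to E and at 0.809, 0.793, 0.829, 0.773 and 0.610 CPM in overexpressing Day 13 libraries. Each letter was lower in overexpressing worms, by a wide margin in A to C and a narrow one in D and E, and the groups overlapped through control letter E. The log2 difference was -1.36 ± 0.40 (SE, unadjusted p = 0.00478, adjusted p = 0.315, edgeR) or -1.46 ± 0.42 in DESeq2 (adjusted p = 0.0305). In letters A to C alone it was -1.77 ± 0.29 (adjusted p = 0.00256), where 47% of all genes were called, and in D and E it was -0.47 ± 0.61 (adjusted p = 0.909). Without control Day 13 letter E it was -1.57 (adjusted p = 0.0804), a setting under which 662 of 8776 genes were called. The difference held its sign when the top 3% of genes were left out of the totals (-0.97, adjusted p = 0.436).

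At L4 unc-62 was at 0.833, 1.28, 1.08, 0.956 and 0.651 CPM in control and at 0.889, 0.629, 0.664, 0.603 and 0.361 CPM in overexpressing libraries. It was lower in overexpressing worms in 4 of 5 letters, with overlap, and the log2 difference was -0.66 ± 0.33 (adjusted p = 0.495). With age unc-62 changed by 0.74 ± 0.44 in control worms (adjusted p = 0.204) and by 0.22 ± 0.29 in overexpressing worms (adjusted p = 0.57). On the scale of all 20 libraries it was higher at Day 13 in 5 of 5 control letters. The difference in log2(CPM + 0.5) was only 0.19 in D and 0.03 in E. In control letters A to C alone the age change was 0.92 ± 0.31 (adjusted p = 0.0344), and in D and E it was 0.18 ± 0.61. Without control Day 13 letter E it was 0.99 (adjusted p = 0.0629). No difference of the age changes between strains was shown, with an edgeR interaction term of -0.73 ± 0.52 (unadjusted p = 0.176, adjusted p = 1).

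For the other genes the strain differences at Day 13 were 0.10 ± 0.32 for daf-16, -0.22 ± 0.39 for pqm-1, -0.34 ± 0.33 for skn-1 and 0.13 ± 0.33 for hsf-1. They were -0.41 ± 0.39 for hlh-30, 0.01 ± 0.43 for pha-4 and -0.04 ± 0.29 for nhr-49, with adjusted p from 0.743 to 0.996. At L4 the differences of the 6 genes other than unc-62 that were tested lay between -0.21 and 0.21, with adjusted p from 0.804 to 0.969. Their SE were 0.27 to 0.34, except 0.72 for pqm-1. None of the 8 interaction terms was called, where 0 of 10545 genes (0%) were called by edgeR and 266 passed an unadjusted p below 0.05. DESeq2 called 0 as well. In letters A to C alone 1 of the 8 edgeR interaction terms passed an unadjusted p below 0.05, as did 1009 of 10453 genes. None of the 8 was called there, where 138 genes were. Without control Day 13 letter E, 1 of the 8 passed that unadjusted level (407 of 10851 genes) and 0 were called.

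**Figure D3:**
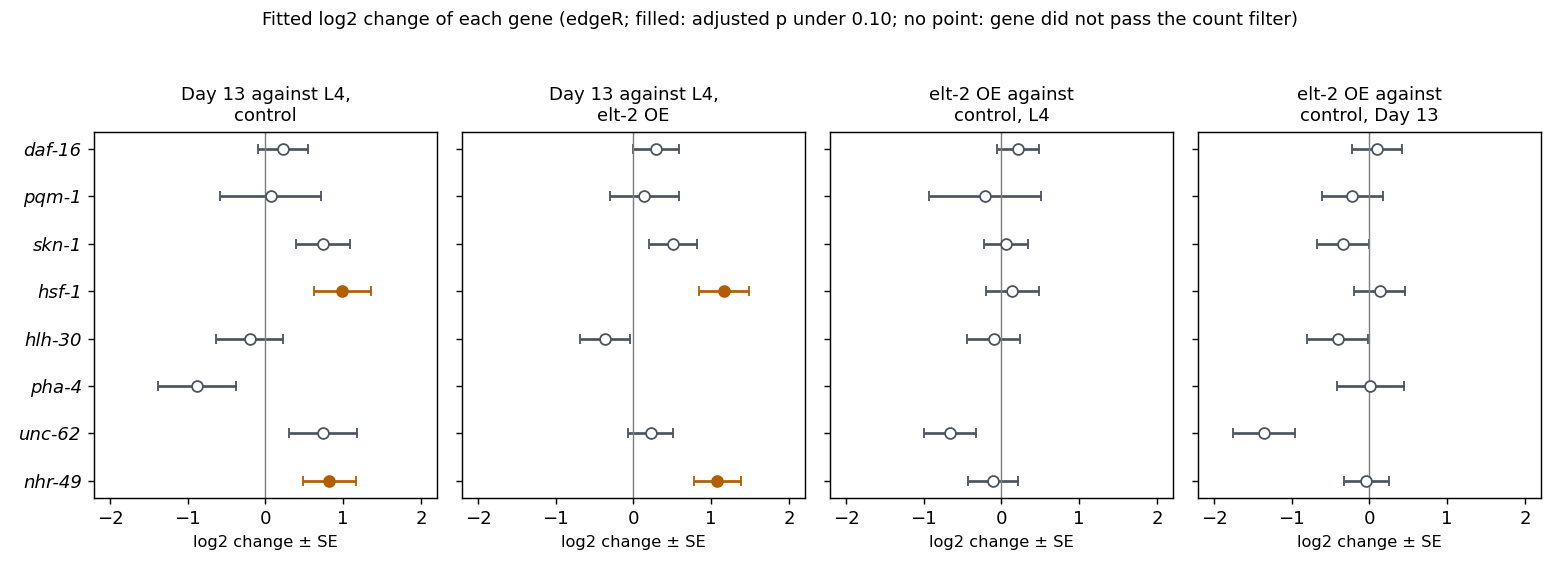
Fitted log2 change ± SE (x axis) of each gene (y axis) in the 4 comparisons, with filled points at an adjusted p below 0.10 in edgeR. The filled points are hsf-1 and nhr-49 in both age comparisons, and unc-62 at Day 13 lies farthest from 0 among the strain differences, at -1.36.

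The genes around each factor were described from lists of known regulators and targets, and the plot of these pathway genes gives every value. The lists were chosen with earlier results of these data known, so their counts are a description and not a test. Listed genes were fitted over all letters only, and the part of the letter sets in their values was not tested. None of the listed genes was called between the strains at either age or in the interaction. With age, their counts are to be read against all genes tested, of which 21.9% were called higher and 23.7% lower in control worms and 25.8% and 23.4% in overexpressing worms. Upstream of DAF-16, 6 of 10 tested insulin signalling genes rose with age in control worms and 8 of 10 in overexpressing worms, and none fell. Their median log2 change was 1.60 and 1.75, against 0.12 and 0.22 over all genes. The receptor gene daf-2 rose by 1.83 ± 0.35 (adjusted p = 0.00225) in control worms, the kinase gene pdk-1 by 2.99 ± 0.57 (adjusted p = 0.00208) and the TORC2 subunit gene rict-1 by 1.83 ± 0.35 (adjusted p = 0.00197). In overexpressing worms rict-1 rose by 2.17, pdk-1 by 2.33 and the insulin-like peptide gene ins-7 by 2.15.

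Among partners and regulators of DAF-16, 5 of 11 rose in control and 6 of 11 in overexpressing worms (median log2 change of the list 1.31 and 1.12). The kinase gene cst-1 rose by 1.66 and 2.30, the host cell factor gene hcf-1, which restrains DAF-16, by 1.57 and 1.52, and eak-7 by 1.5 and 1.12. Of the class I targets, 4 of 9 rose and 1 fell in control worms, and 5 of 8 rose and 1 fell in overexpressing worms (median 1.93 and 2.68). The metallothionein gene mtl-1 rose by 5.38 ± 0.75 (adjusted p = 0.000288) in control and 6.13 ± 0.68 (adjusted p = 4.95e-05) in overexpressing worms, and the ferritin gene ftn-1 rose by 3.98 and 3.61. The glycolytic gene gpd-2 fell by 3.46 ± 0.99 (SE) in control worms and fell by 3.58 ± 1.06 in overexpressing worms. lea-1 rose by 2.24 in control and 4.10 in overexpressing worms, and dod-3 by 2.30 and 2.88. daf-16 itself was not called in these comparisons. Of the class II genes linked to PQM-1 only 2 of 6 had enough counts, and dod-23 rose by 4.89 in control and 3.06 in overexpressing worms.

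Around SKN-1, wdr-23, which targets the protein for degradation, rose by 0.90 and 1.22 in control and overexpressing worms, as 1 of 4 and 1 of 3 regulators tested. Of 3 and 4 detoxification targets tested, gst-10, a glutathione transferase gene, fell by 4.97 in control worms and fell by 5.17 in overexpressing worms, and none rose. Around HSF-1, the HSB-1 pathway gene ddl-2 rose by 1.20 and 1.90, as 1 of 4 and 1 of 5 regulators. Of the heat shock targets 2 of 10 rows in control and 3 of 10 in overexpressing worms had enough counts. None was called in control worms, and F44E5.5, an hsp70 gene with a near-identical neighbour, was 1.87 ± 0.83 higher at Day 13 in overexpressing worms (adjusted p = 0.0922), a value that is uncertain because reads may be split between the copies.

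Around HLH-30, 5 of the 10 listed targets had too few counts to be tested, fmo-2 and the lipase genes lipl-1 to lipl-4. Of the 5 tested 4 rose and 1 fell in each strain (median 1.55 and 1.69). The ubiquitin-like gene lgg-1 rose by 1.67 and 2.15 in control and overexpressing worms, atg-18 by 1.55 and 1.63 and bec-1 by 1.46 and 1.69, whereas the lipase gene lipl-5 fell by 2.01 and 3.27. Of 8 regulators and partners 3 rose and 1 fell in each strain. The one that fell was mxl-3, a repressor of lipase genes (by 1.33 and 1.38), and xpo-1, the exportin gene, rose by 1.14 and 1.06. mxl-2, which encodes a partner of the Myc-like factor MML-1, rose by 1.28 and 1.83. The TORC1 genes rheb-1 (0.70, control) and daf-15 (1.22, overexpressing) were each called in 1 strain, which does not show a difference between the strains.

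Around PHA-4, the pharyngeal muscle genes myo-1, myo-2 and tnt-4 fell in both strains. In control worms myo-1 fell by 2.30, myo-2 fell by 2.59 and tnt-4 fell by 4.24, and in overexpressing worms they fell by 3.67, fell by 3.31 and fell by 3.61 in the same order. They are also the pharynx markers named above. The autophagy kinase gene unc-51 rose by 1.03 in control worms and was also called higher, by 0.91, in overexpressing worms. rsks-1, the S6 kinase gene, was called higher in overexpressing worms (0.90, adjusted p = 0.0936) but not in control worms (1.03, adjusted p = 0.148). Around UNC-62, 1 of 5 partners and Hox genes was called in control worms, ceh-40 (higher by 4.19 ± 0.67, adjusted p = 0.000668), and 1 of 4 in overexpressing worms, lin-39, which fell by 1.29. ceh-40 had too few counts to be tested in overexpressing worms and lin-39 in control worms, so these calls show no difference between the strains. Of 6 yolk protein genes, on which UNC-62 and PQM-1 are known to act, 2 passed the test in each strain. In control worms vit-3 fell by 5.85 ± 1.90 (SE) and vit-1 fell by 3.69 ± 1.31, and in overexpressing worms vit-3 fell by 7.26 ± 1.40 and vit-1 fell by 5.57 ± 1.15. The vit genes are close paralogs, so the split of reads among them is uncertain.

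Around NHR-49, the partner gene nhr-80 fell by 1.62 and 1.18, and nhr-66 rose by 1.07 in overexpressing worms. Of the targets 1 of 7 rose and 2 fell in control worms, and 1 of 8 rose and 4 fell in overexpressing worms. The desaturase gene fat-7 fell by 5.50 ± 0.51 (adjusted p = 4.25e-05) in control and 6.21 ± 0.81 (adjusted p = 0.000128) in overexpressing worms. The desaturase gene fat-5 rose by 1.36 and 1.53. Of the genes of fatty acid oxidation, ech-1.1 fell by 1.88 in control worms, and hacd-1 fell by 2.00 and cpt-5 fell by 2.34 in overexpressing worms. cpt-5 had too few counts to be tested in control worms, and a call in 1 strain does not show a difference between the strains. nhr-49 and fat-7 thus moved in opposite directions with age in both strains. The intestine markers, which fell as well, moved with fat-7, and their part in its values was not tested.

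**Figure D4:**
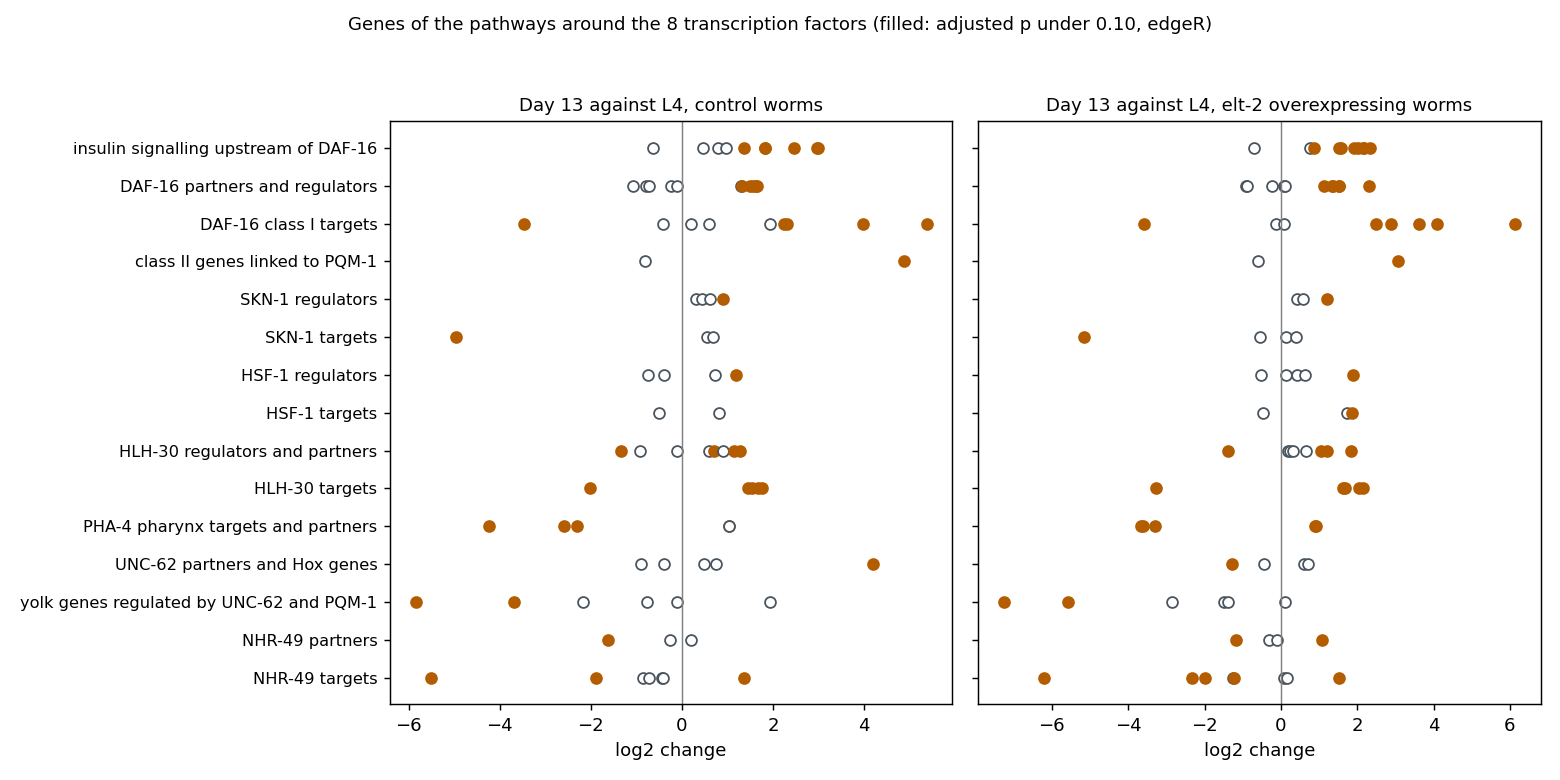
Log2 change from L4 to Day 13 (x axis) of each tested gene of the lists (y axis) in control and overexpressing worms, with filled points at an adjusted p below 0.10 in edgeR. Every called insulin signalling gene lies to the right of 0 (6 of 10 and 8 of 10 tested genes), and the called NHR-49 targets lie on both sides.

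Across the 20 libraries hsf-1 and nhr-49 followed each other most closely of the 28 pairs of genes, with a Pearson r of 0.91, and of 0.72 after the mean of each group was removed. skn-1 and nhr-49 correlated at 0.68 over all libraries but at 0.02 within groups. pqm-1 and pha-4 correlated at 0.61 over all libraries and 0.77 within groups, and pqm-1 and unc-62 at -0.25 and -0.57. These values are descriptions over libraries that share age, strain, letter set and scaling. Among 10545 genes the levels most like those of hsf-1 were those of sur-6 (r = 0.951) and cpna-3 (r = 0.947), and those most like nhr-49 were snfc-5 (r = 0.95) and B0511.6 (r = 0.938). The closest were ZK632.9 (0.919) and F59A7.7 (0.916) for unc-62, dgn-1 (0.898) and F49B2.3 (0.891) for skn-1, and lron-10 (0.895) and F18H3.1 (0.892) for pqm-1. For daf-16 they were pptr-2 (0.840) and spat-2 (0.829), for hlh-30 F49B2.6 (0.829) and F01G10.9 (0.814), and for pha-4, the gene with the fewest counts, clec-60 (0.808) and egl-3 (0.768).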

How the data were processed

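Libraries of 3′ ends of messenger RNA (3SEQ) were made from whole worms, 5 per group. The deposited table holds the authors' read counts per gene, without normalization; Bowtie 0.12.7 is named in the submitters' processing notes, and the genome build, annotation and use of strand are not given in the sources used here. The table has 3 columns without a header, which were not used. Of 21383 genes, 20203 (94.5%) matched the WBcel235 annotation by sequence name.

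The quasi-likelihood F test of edgeR 4.0.16 (R 4.3.3) was applied to the counts after filterByExpr and TMM scaling, on the 10 libraries compared or, for the interaction, on all 20. P-values were adjusted over all genes tested by Benjamini-Hochberg, with calls at 10%. Standard errors (SE) are the log2 change over the root of F. DESeq2 1.42.0, other scalings, no filter, letter sets, each library left out and the letter as a block were alternatives. Same-letter libraries deviated together from their group means in 3 of 4 comparisons (lowest correlation 0.41 and 0.10 for age in control and overexpressing worms, 0.52 for strain at L4), but not for strain at Day 13 (0.07). The study names the libraries of a group biological replicates. The labels do not state what a letter shares or how the cultures were kept apart, so p-values measure the spread between these libraries. Levels are TMM counts per 1000000 (CPM) scaled over all 20 libraries, and 0.5 was added before log2. The fits were tested on simulated data.

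The 8 genes, the lists and the letter sets were chosen with earlier results of these data known. Named from each list were the up to 3 called genes per comparison with the smallest adjusted p, and for each of the 8 genes the 2 genes with the highest correlation. unc-51 and rsks-1 fall outside this rule and were named after their values were seen.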

Additional observations from a re-analysis of the deposited data

Results flagged for a closer look

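In 3 of the 32 sets of 5 libraries (8 genes in 4 groups) 1 library lay so far from the rest that its gap, as a share of the range, exceeded Dixon's 95% critical value, where chance gives about 1 in 20. daf-16 was at 5.55 CPM in control Day 13 letter E, against 2.98 to 3.24 CPM in the other letters, and without that library its age change in control worms was 0.07 in place of 0.23. nhr-49 was at 2.99 CPM in control L4 letter C, against 1.36 to 1.58 CPM in the others, and without that library its age change in control worms was 1.30 (adjusted p = 0.0135) in place of 0.82. unc-62 was at 0.61 CPM in overexpressing Day 13 letter E, against 0.773 to 0.829 CPM in the others, and without it the strain difference at Day 13 was -1.32 (adjusted p = 0.297).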

How the results depend on the processing

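Values are log2 changes or counts of called genes. With the letter as a block the genes called in control and overexpressing worms with age were 5280 and 5141, those between strains 211 at L4 and 0 at Day 13, skn-1 gained a call with age in control worms, no other call among the 8 genes changed, and the L4 strain difference of pqm-1 became 0.12 (from -0.21). Of the 8 genes, skn-1 also gained its call by DESeq2, without the count filter and in letters A to C. DESeq2 called 461 genes at L4 and 741 at Day 13 between strains (1 of the 8, unc-62), and gave -0.06 for pqm-1 with age in control worms, -0.03 for pha-4 between strains at Day 13 and 0.10 for the interaction of hsf-1. Median-of-ratios factors gave -0.06, -0.02 and 0.10 for the same values. Without the count filter 6341 and 6587 genes were called with age and 2 between strains at Day 13, hlh-30 with age in control worms became 0.05 and the interaction of pqm-1 -0.03. Totals without the top 3% of genes called 4 of the 8 with age in control worms and 2 genes between strains at Day 13. hlh-30 then changed by 0.21 and 0.00 with age in control and overexpressing worms and by 0.18 between strains at L4, nhr-49 by 0.22 and 0.27 between strains at L4 and Day 13, and skn-1 by 0.01 at Day 13.

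Letters A to C alone called 2957 and 4094 genes between strains at L4 and Day 13 (1 of the 8 at Day 13) and 138 in the interaction. They gave -0.04 for daf-16 and 0.02 for hlh-30 with age in control worms, -0.07 for unc-62 with age in overexpressing worms, 0.84 for pqm-1 and -0.12 for skn-1 between strains at L4, 0.42 for pqm-1 and 0.18 for nhr-49 at Day 13, and interactions of 0.21, -0.29 and 0.25 for daf-16, pqm-1 and hsf-1. Letters D and E alone called 30 and 0 genes between strains and 20 in the interaction. With age in overexpressing worms they called 1 of the 8 (hsf-1), where 5480 of 9746 genes were called. They gave -0.28 and -0.49 for pqm-1 with age in control and overexpressing worms, -0.31, 0.24 and 0.00 for hsf-1, hlh-30 and nhr-49 between strains at L4, -0.39, -0.34, 0.11 and -0.89 for daf-16, hsf-1, hlh-30 and pha-4 at Day 13, and interactions of -0.27, -0.46 and 0.29 for pqm-1, nhr-49 and unc-62.

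With each library left out in turn, 0 to 3 of the 8 genes were called with age in control worms. In those fits 3853 to 4513 genes were called, of 9306 to 9762 tested. Between strains at Day 13, 0 to 1 of the 8 were called, unc-62 without control letter E, where 662 of 8776 genes were called. The genes called between strains ranged from 0 to 1 at L4 and from 0 to 662 at Day 13. With age in control worms pqm-1 ranged from -0.16 to 0.51 hlh-30 from -0.48 to 0.07, daf-16 from 0.07 to 0.48 and pha-4 from -0.97 to -0.46, and in overexpressing worms pqm-1 from -0.07 to 0.52 and unc-62 from -0.07 to 0.36. Between strains at L4 pqm-1 ranged from -0.59 to 0.26, skn-1 from -0.03 to 0.15, hsf-1 from -0.03 to 0.34 and nhr-49 from -0.23 to 0.16. At Day 13 pqm-1 ranged from -0.34 to 0.01, pha-4 from -0.18 to 0.18 and nhr-49 from -0.21 to 0.04. The interaction ranged from -0.20 to 0.09 for daf-16, -0.47 to 0.42 for pqm-1, -0.20 to 0.20 for hsf-1 and -0.19 to 0.17 for nhr-49. The causes were not tested, and the age changes of hsf-1 and nhr-49 stayed above 0 in every setting named here. In both strains the number of the 8 genes with a higher mean at Day 13 (7 and 6) was 7 and 8 on the scale without the top 3% of genes. Counts of 4 to 27 limit pha-4.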
